A study of Mus musculus with 9 samples.

Results

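Transcripts of 10 genes that build telomerase or protect chromosome ends were followed in mouse spinal cord. The genes were selected by symbol with earlier results of these data known. Tert, Dkc1, Nhp2 and Nop10 encode the telomerase enzyme and its assembly proteins. Terf1, Terf2, Terf2ip, Pot1a, Tinf2 and Acd encode shelterin. All 10 symbols were among the 40879 in the deposited count table. The 9 libraries, all labelled wild type (WT), fell into 3 groups of 3. One group was naive. Both others carried EAE (experimental autoimmune encephalomyelitis), in which immunity against myelin inflames brain and cord, and received either vehicle or GV1001, whose sequence comes from human telomerase reverse transcriptase. Reads of mouse Tert count the animal's own transcript, since an added peptide gives none. The labels give no strain, age, sex, dose, day of sampling or method of disease induction, and do not say whether replicates are separate animals, so the p-values measure the spread between these libraries, which may be technical.

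Telomerase is a reverse transcriptase that copies the template of its own RNA subunit, Terc, onto chromosome ends. Its RNA is held by dyskerin (Dkc1) with Nhp2 and Nop10, which also form the box H/ACA particles that guide pseudouridylation of ribosomal RNA and are therefore made in most cells. Tert itself is kept low in most differentiated tissue. Shelterin coats the telomere repeats and keeps chromosome ends from being treated as breaks. Cord tissue mixes neurons, glia, vessels and, in EAE, infiltrating leukocytes, so fewer cells of a type and less RNA per cell cannot be told apart.

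The promoter windows of Tert and of 2 assembly partners are shown because Tert was counted near the floor while its partners were counted in every library. They are RefSeq sequences of build GRCm38.p6, running from 250 bases before the gene start to 50 bases after it, 5′ to 3′ on the gene's strand. Tert is on the plus strand at chr13:73626661-73626960, Nhp2 on the plus strand at chr11:51619523-51619822 and Nop10 on the plus strand at chr2:112261676-112261975. Capitals mark the GC box GGGCGG or its reverse complement CCGCCC, a motif bound by Sp1 family factors.
Tert: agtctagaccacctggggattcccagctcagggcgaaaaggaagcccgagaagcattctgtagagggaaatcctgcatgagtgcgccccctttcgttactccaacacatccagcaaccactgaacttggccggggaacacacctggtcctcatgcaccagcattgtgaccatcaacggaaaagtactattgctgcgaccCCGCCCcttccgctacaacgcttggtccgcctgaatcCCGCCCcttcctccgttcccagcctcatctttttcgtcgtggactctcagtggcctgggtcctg
Nhp2: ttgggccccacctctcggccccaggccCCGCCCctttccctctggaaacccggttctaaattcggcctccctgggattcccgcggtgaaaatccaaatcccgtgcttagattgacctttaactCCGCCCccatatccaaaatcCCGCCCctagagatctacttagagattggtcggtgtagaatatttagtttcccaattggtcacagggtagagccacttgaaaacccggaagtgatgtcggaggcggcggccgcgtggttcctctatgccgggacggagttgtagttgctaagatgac
Nop10: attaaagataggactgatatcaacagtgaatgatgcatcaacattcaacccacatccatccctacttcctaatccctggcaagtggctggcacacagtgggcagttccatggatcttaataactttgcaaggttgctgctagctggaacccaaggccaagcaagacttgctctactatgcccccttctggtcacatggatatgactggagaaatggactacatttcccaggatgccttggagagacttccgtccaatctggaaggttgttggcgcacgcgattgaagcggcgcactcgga
The Tert window held 2 GC boxes, the Nhp2 window 3 and the Nop10 window 0. Of the 10 members, 9 had a window in the table, Terf1 being the exception, and 5 of these held at least 1 GC box, against 35.7% of 32851 promoter windows of the same length. The E box CACGTG, a site for Myc family factors, was in 0 of the 9 members' windows and in 7.15% of all windows. The telomere repeat unit TTAGGG, searched on both strands, was in 0 of the 9 and in 10.6% of all. Since the members held the GC box alone of these motifs, no matches overlapped.

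Total counts per library ranged from 5247246 to 6174870. A level is given as CPM, the count scaled to a fixed library size, with library sizes adjusted by the trimmed mean of M values (TMM), and 3 counts in a library, 0.483 to 0.565 TMM CPM, served as the floor. Changes were tested with edgeR's quasi-likelihood test over 15351 genes that passed a filter on low counts. A gene was called at an adjusted p under 0.05 (Benjamini-Hochberg over all tested genes). Of the members, 9 passed the filter and Tert did not. Of the defining markers of cord tissue, 6 of neurons, 5 of astrocytes and 6 of oligodendrocytes were fixed, and 0 of them were at 0 in any group. Microglial markers, 6 of 6 counted, summed to between 265 and 308 TMM CPM in naive, 485 and 2569 in vehicle libraries and 292 and 1001 in GV1001 libraries. T cell markers summed to at most 0.695 TMM CPM in naive libraries, where Cd3d, Cd3g, Cd2, Cd4 and Cd8a were at 0 counts, to between 3.37 and 59.6 in vehicle libraries and between 2.64 and 17.1 in GV1001 libraries.

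Tert, the gene of the reverse transcriptase, had 11 reads in the whole series. The naive replicates 1 to 3 had 0, 1 and 0 reads, the vehicle replicates 0, 2 and 1, and the GV1001 replicates 0, 1 and 6. Reads were found in 5 of 9 libraries, and GV1001 replicate 3 was the only library above the floor of 3. Of the 26840 symbols with any read, 25.2% had fewer reads in all than Tert.

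Summed over groups, the level of Tert was 0.059 CPM in naive (95% exact Clopper-Pearson interval 0.00149 to 0.329), 0.181 in vehicle (0.0374 to 0.53) and 0.408 in GV1001 libraries (0.164 to 0.841). These intervals cover counting error only. The CPM values here, and the ratios that follow, use raw library totals without TMM. In GV1001 against naive, 7 reads stood against 1, a ratio of 6.92 with an exact Poisson interval of 0.889 to 312. The ratio was 1.55 (0.0197 to 121) without GV1001 replicate 3, 8.87 (1.08 to 408) without replicate 2 and 10 (1.29 to 451) without replicate 1. Without replicate 3, GV1001 against vehicle moved from 2.25 to 0.503. Over libraries, the two-sided exact permutation p was 0.7 for vehicle against naive, 0.7 for GV1001 against vehicle and 0.4 for GV1001 against naive, where 20 assignments allow no p under 0.1. Terc, the RNA subunit, whose mature form carries no long poly(A) tail, had 0 counts in all 9 libraries. The floor of 3 counts over the series is 0.0592 CPM by raw totals. The upper end of the two-sided 95% Clopper-Pearson interval for 0 counts is 0.0728 CPM.

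Of the assembly proteins, Nop10 was the one whose vehicle and naive libraries did not overlap. Nop10, the smallest protein of the complex, was at 138, 141 and 136 TMM CPM in naive, 127, 110.4 and 117 in vehicle libraries and 117, 139 and 134 in GV1001 libraries. All 3 vehicle libraries lay below all 3 naive libraries, while the GV1001 libraries overlapped both groups. Of all tested genes, 11.7% were lower in vehicle than in naive libraries without overlap. Group means were 138 ± 2.22, 118 ± 8.31 and 130 ± 11.5 TMM CPM (SD, n = 3). The log2 fold change in vehicle against naive was -0.23 ± 0.10 (SE), an adjusted p of 0.23 in edgeR, so Nop10 was not called. In GV1001 against vehicle it was 0.14 ± 0.10. Neuron markers, 6 of 6 counted in each library, summed to between 6390 and 6761 TMM CPM in naive and 4506 and 6128 in vehicle libraries, and the 10 proliferation markers to between 33.7 and 45.5 in naive and 47.3 and 144 in vehicle libraries. Their part in the Nop10 difference was not tested.

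Dkc1 encodes the pseudouridine synthase at the core of the complex. It was at 81.7, 85.6 and 100.1 TMM CPM in naive, 93.0, 79.0 and 67.0 in vehicle libraries and 84.8, 79.1 and 94.6 in GV1001 libraries. The 3 groups overlapped. Its log2 fold change was -0.16 ± 0.14 in vehicle against naive and 0.11 ± 0.14 in GV1001 against vehicle, with edgeR adjusted p-values of 0.564 and 0.815.

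Nhp2, which binds the RNA within the complex, was at 17.1, 13.9 and 12.7 TMM CPM in naive, 22, 15.5 and 16 in vehicle libraries and 20.5, 19.7 and 13.5 in GV1001 libraries. Its groups also overlapped, and the log2 fold change in vehicle against naive was 0.29 ± 0.22, with an interval of -0.20 to 0.78. The 3′ end of Nhp2 lies in an exon of Rmnd5b on the opposite strand, per GENCODE M21, and whether counting used strand is not given in the sources used here. Rmnd5b was at 15.3 to 16.6 TMM CPM in naive, 20.6 to 24.9 in vehicle libraries and 15.6 to 24.3 in GV1001 libraries. The pair share 44 exon bases, and reads within these cannot be told apart without strand. The 3′ end of Dkc1 lies in an exon of Mpp1, with 45 shared exon bases, and the same holds there. Mpp1 was at 26.2 to 27.3 TMM CPM in naive, 26 to 31.3 in vehicle and 17 to 26 in GV1001 libraries.

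**Figure D1:**
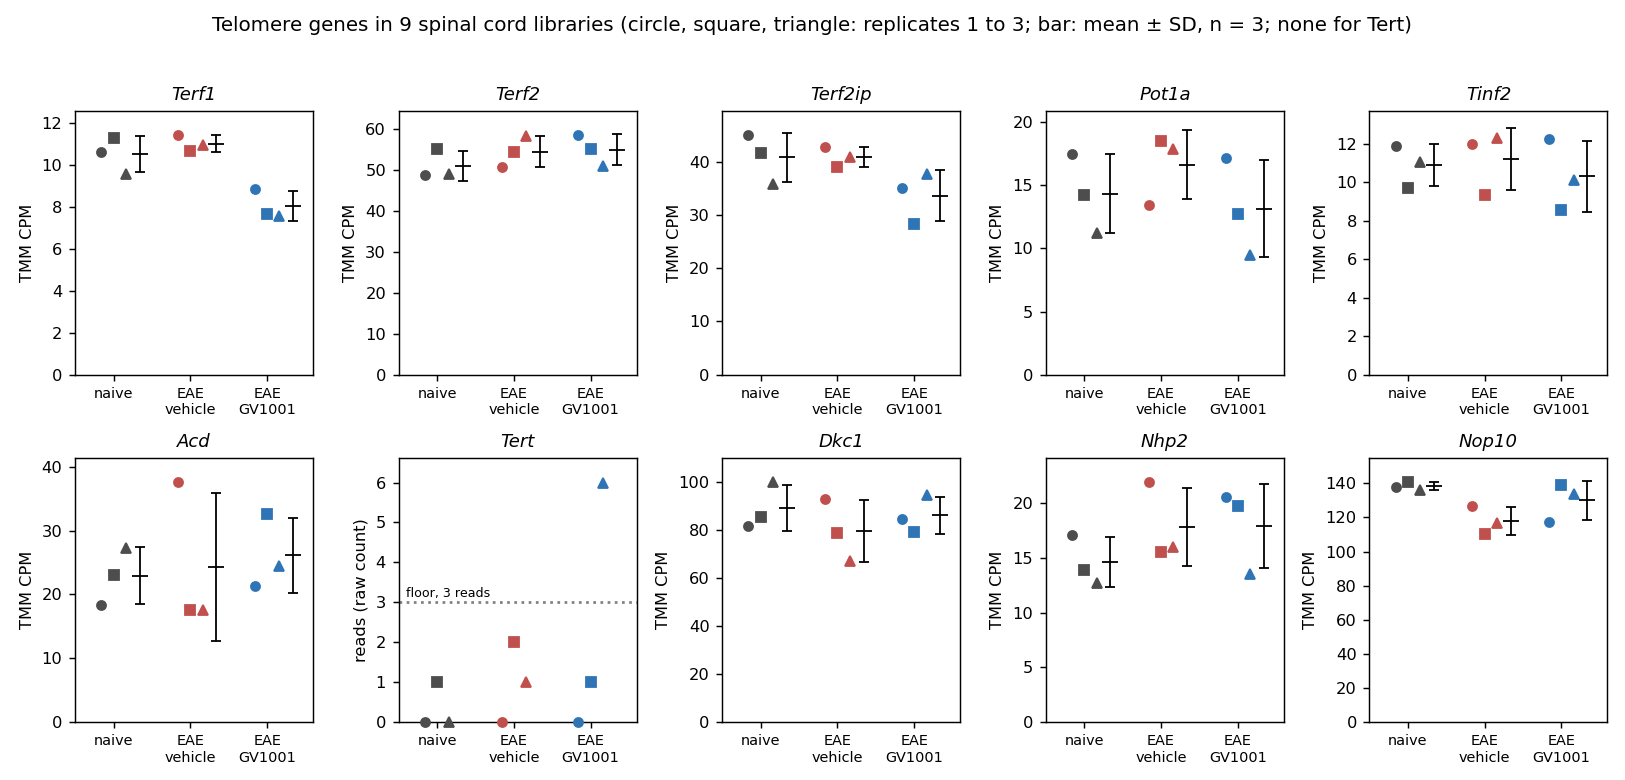
Level of each of the 10 genes by library, in TMM CPM, with raw reads for Tert; colours are groups, symbols replicates 1 to 3, and bars the mean ± SD of 3 libraries. The Terf1 points of GV1001 libraries, 7.57 to 8.86 TMM CPM, lie below those of the other 6 libraries, the Nop10 points of vehicle libraries lie below the naive ones, and Tert exceeds 3 reads in 1 library.

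Among shelterin genes, Terf1 separated the GV1001 libraries from all others. Terf1 encodes TRF1, which binds double-stranded telomere repeats. It was at 10.6, 11.3 and 9.59 TMM CPM in naive, 11.4, 10.7 and 11 in vehicle libraries and 8.86, 7.68 and 7.57 in GV1001 libraries. The highest GV1001 library was below the lowest of the other 6, and the naive and vehicle libraries overlapped. Of all tested genes, 4.57% were lower without overlap in GV1001 against vehicle and 8.24% in GV1001 against naive. The share lower than both groups at once was not computed. Group means were 10.5 ± 0.859, 11 ± 0.388 and 8.04 ± 0.711 TMM CPM (SD, n = 3).

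The log2 fold change of Terf1 was -0.46 ± 0.19 in GV1001 against vehicle (95% interval -0.88 to -0.04) and -0.39 ± 0.19 in GV1001 against naive (-0.81 to 0.03). Neither was called, with edgeR adjusted p-values of 0.539 and 0.705. The exact permutation p was 0.1 in each, the smallest that 3 against 3 libraries allow. In edgeR without the filter, with a replicate block or in the 6 libraries compared, the unadjusted p against vehicle was not under 0.05. The gene was counted by 44 to 65 reads per library, and counting alone gives a coefficient of variation of 13.4%, against 15.3% observed over the 9 libraries. The comparisons of GV1001 with vehicle and with naive share the GV1001 libraries.

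Markers of tissue next to the cord differed between the same groups, with ranges that overlapped for GV1001 and vehicle. The 6 Schwann cell markers, all counted in each library, summed to between 1524 and 2279 TMM CPM in GV1001, 230 and 1549 in vehicle libraries and 513 and 952 in naive libraries. The 8 skeletal muscle markers summed to between 396 and 4086 in GV1001, 16 and 416 in vehicle libraries and 23.6 and 201 in naive libraries. Their part in the Terf1 difference was not tested.

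Terf2ip encodes RAP1, the shelterin subunit that is carried to telomeres by TRF2. It was at 45.1, 41.7 and 36 TMM CPM in naive, 42.8, 39.1 and 40.9 in vehicle libraries and 35.0, 28.3 and 37.7 in GV1001 libraries. The GV1001 libraries lay below the vehicle libraries but overlapped the naive ones. Terf2ip stood at a log2 fold change of -0.28 ± 0.14 in each comparison with GV1001, with edgeR adjusted p-values of 0.575 against vehicle and 0.713 against naive. The means of naive and vehicle libraries were both 40.9 TMM CPM (SD 4.62 and 1.84, n = 3). Its antisense neighbour Gm6793, which shares 108 exon bases, had 0 counts in the series.

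Terf2 encodes TRF2, which folds the telomere end into a loop. It varied least among the tested members, with a coefficient of variation of 6.98% over 9 libraries, where counting alone gives 5.76%. Its levels were 48.7 to 55.2 TMM CPM in naive, 50.7 to 58.2 in vehicle libraries and 51.1 to 58.6 in GV1001 libraries. The groups overlapped, and the interval of the log2 fold change in GV1001 against vehicle ran from -0.23 to 0.25.

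Pot1a encodes the protein that binds the single-stranded telomere overhang and is one of a pair of mouse POT1 paralogs. It was at 17.5, 14.2 and 11.2 TMM CPM in naive, 13.5, 18.5 and 17.9 in vehicle libraries and 17.1, 12.7 and 9.51 in GV1001 libraries. The groups overlapped, and the log2 fold change was 0.21 ± 0.25 in vehicle against naive and -0.35 ± 0.25 in GV1001 against vehicle. Its paralog Pot1b was at 2.4 to 3.79 TMM CPM in naive, 3.04 to 4.24 in vehicle libraries and 1.93 to 4.54 in GV1001 libraries. How reads that match both paralogs were assigned is not given, so the split between them is uncertain.

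Tinf2 encodes TIN2, the hub that joins TRF1 and TRF2 to the rest of the complex. It was at 11.9, 9.73 and 11.1 TMM CPM in naive, 12, 9.36 and 12.3 in vehicle libraries and 12.2, 8.56 and 10.2 in GV1001 libraries. The groups overlapped, and the spread over 9 libraries, 13%, was close to the 12.8% that counting alone gives. The gene shares 1540 exon bases with Gmpr2 on the opposite strand, so its counts are uncertain without strand. Its 3′ end lies within Gmpr2 but not in an exon of it. Gmpr2, an enzyme of purine nucleotide interconversion, was at 8.3 to 10.8 TMM CPM in naive, 11.1 to 13.3 in vehicle and 8.21 to 11.6 in GV1001 libraries.

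Acd encodes TPP1, which tethers POT1 to shelterin and recruits telomerase. It varied most among the tested members, with a coefficient of variation of 28.6% where counting gives 8.53%. It was at 18.4, 23.1 and 27.3 TMM CPM in naive, 37.6, 17.6 and 17.6 in vehicle libraries and 21.3, 32.7 and 24.5 in GV1001 libraries. The group means, 22.9 ± 4.44, 24.3 ± 11.6 and 26.1 ± 5.86 (SD, n = 3), differed by less than the spread within groups. Vehicle replicate 1 and GV1001 replicate 2 were the highest of their groups.

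The log2 fold change of Acd in vehicle against naive was 0.08 ± 0.30, and -0.38 without vehicle replicate 1. In GV1001 against vehicle it was 0.11 ± 0.30, and 0.57 without that library. Vehicle replicate 1 also had the highest sums of T cell markers, 59.6 TMM CPM, and of microglial markers, 2569, and GV1001 replicate 2 the highest of its group, 17.1 and 1001. Vehicle replicates 2 and 3 both had Acd at 17.6 TMM CPM, with microglial sums of 485 and 1126 and T cell sums of 3.37 and 9.79. Naive libraries had Acd at 18.4 to 27.3 with microglial sums of 265 to 308. The 3′ end of Acd lies in an exon of Carmil2, a gene of the opposite strand that acts in T cell costimulation, and the pair share 1208 exon bases in GENCODE M21. Carmil2 was at 57.2, 60.3 and 63.1 TMM CPM in naive, 47.2, 36.7 and 30.4 in vehicle libraries and 40.1, 59.9 and 61.1 in GV1001 libraries. Vehicle replicate 1 was the highest of its group for Carmil2 as well. The part of these cells, or of reads from the opposite strand, in the Acd counts was not tested.

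**Figure D2:**
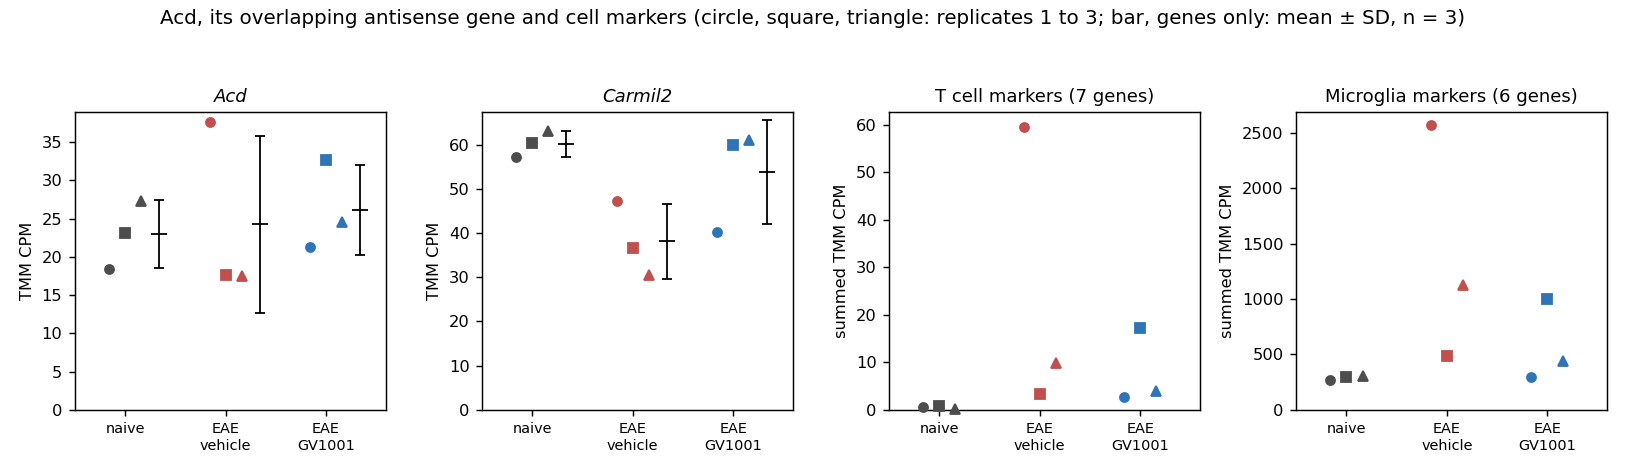
Acd, the overlapping antisense gene Carmil2, and the summed T cell and microglial markers by library, in TMM CPM; colours are groups and symbols replicates 1 to 3, with the mean ± SD of 3 libraries for the genes. Vehicle replicate 1 is the highest vehicle library in all 4 panels, at 37.6 TMM CPM for Acd, while Carmil2 is at 57.2 to 63.1 in naive libraries, where T cell markers are at most 0.695.

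Over the 9 tested members, edgeR called 0 in each of the 3 comparisons. The background of called genes was 0.0195% in vehicle against naive and 0% in GV1001 against vehicle and in GV1001 against naive. At an unadjusted p under 0.05, 1 member (Nop10) was past in vehicle against naive, where 19.3% of all tested genes were and 8.06% were lower, 1 (Terf1) in GV1001 against vehicle, where 9.08% were and 4.51% were lower, and 0 in GV1001 against naive, where 7.31% were and 2.96% were lower. DESeq2 and limma-voom also called 0 members in each comparison. As limma-voom called 0 of all 15351 genes in each, its 0 members follow from that. DESeq2 called 4.11% of genes in vehicle against naive, 0.0484% in GV1001 against vehicle and 0.168% in GV1001 against naive. These DESeq2 shares are of all 26840 symbols with any read, so they do not compare directly with edgeR shares of 15351 filtered genes. A gene without an adjusted p counted as not called. At an unadjusted p under 0.05, DESeq2 had 0 members in each comparison, where 2974, 1299 and 1188 of its 26840 genes were past. By limma-voom 1, 1 and 0 members were past in the same order, where 2671, 1215 and 957 of 15351 genes were.

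Libraries of the groups compared did not overlap for 1 member in vehicle against naive (Nop10, lower), against 11.7% of all tested genes in that direction. They did not overlap for 2 members in GV1001 against vehicle (Terf1 and Terf2ip, lower), against 4.57%, and for 1 in GV1001 against naive (Terf1, lower), against 8.24%. In either direction 23.8%, 10.5% and 17.1% of genes did not overlap. No member was higher without overlap, where 12%, 5.95% and 8.84% of genes were. The log2 fold change was negative for 2, 4 and 6 of the 9 members in vehicle against naive, GV1001 against vehicle and GV1001 against naive, beside 50.5%, 51.4% and 49.6% of all tested genes. The median log2 fold change of the 9 members was 0.07, 0.0025 and -0.08 in the 3 comparisons, beside -0.0047, -0.0089 and 0.0019 for all tested genes. Every 95% interval of a tested member's fold lay between 0.534 and 1.80, so for these 9 the data leave room for differences up to these sizes. Tert is not among them. Its exact Poisson intervals of the ratio were 0.247 to 161, 0.514 to 13.5 and 0.889 to 312 in the same order.

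**Figure D3:**
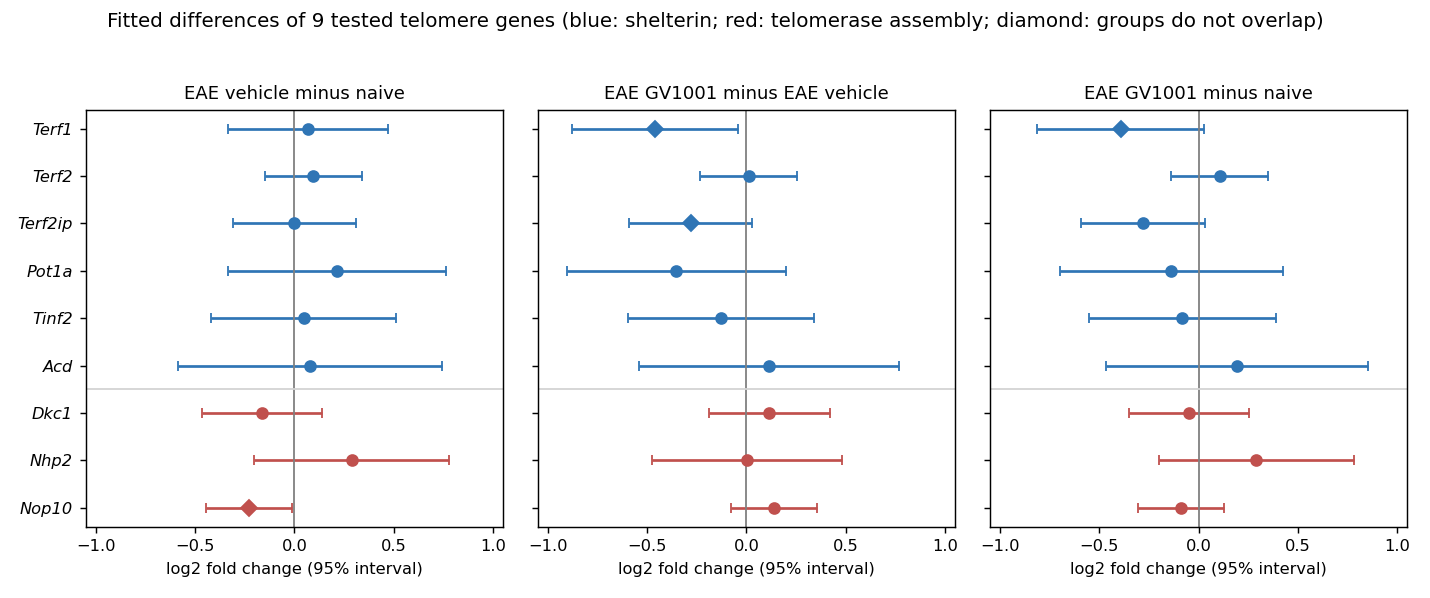
Log2 fold change of the 9 tested members in the 3 comparisons, with 95% intervals of the edgeR fit; blue is shelterin, red telomerase assembly, and a diamond marks groups whose libraries do not overlap. Intervals that leave out 0 are those of Nop10 in vehicle against naive and of Terf1 in GV1001 against vehicle, and neither gene was called after adjustment.

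In the order of group means, neighbouring groups overlapped at each step for every tested member except Terf1, whose step from naive to GV1001 had no overlap. Mean levels ran from vehicle through naive to GV1001 for Terf1, Terf2ip, Pot1a and Tinf2, and from GV1001 through vehicle to naive for Terf2, Acd and Nhp2. For Dkc1 and Nop10 naive was highest and vehicle lowest. The genes whose log2 levels followed Terf1 most closely over the 9 libraries, among 11821 genes at 5 TMM CPM or more, were Trps1, a GATA-type transcriptional repressor (Pearson r = 0.951), Taf1, a subunit of the general transcription factor TFIID (0.906), and Prkdc, the catalytic subunit of DNA-dependent protein kinase (0.896). Those closest to Nop10 were Fam98c (0.974), the symbol TrnV (0.974) and Marf1, an RNA-binding protein (0.972). Among members, Terf1 had r = 0.781 with Terf2ip and -0.0380 with Terf2. These values describe 9 libraries in 3 groups, and differences of group and depth between libraries enter them. The genes named as closest were the 3 highest of 11821, a choice that by itself favours high r.

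Other genes of telomere upkeep were read from the same fit. Of 16 further genes of telomerase assembly and RNA processing, 15 were tested, and of 23 genes of end protection and replication 22 were, Pif1 being left out. In each comparison edgeR called 0 of them, and DESeq2 and limma-voom called 0 as well. The shares of all genes called were those given for the members. At an unadjusted p under 0.05, 2 assembly genes and 4 end-protection genes were higher in vehicle against naive, and 0 were lower, where 11.3% of all tested genes were higher and 8.06% lower. In GV1001 against vehicle 0 assembly genes and 1 end-protection gene were lower, where 4.51% of all tested genes were. In GV1001 against naive 1 and 1 were lower, where 2.96% of all tested genes were. In both comparisons 0 were higher, where 4.57% and 4.35% of all tested genes were. Libraries did not overlap in vehicle against naive for 1 assembly and 4 end-protection genes, higher, and for 2 and 0, lower. Of all tested genes, 12% were higher and 11.7% lower without overlap there. In GV1001 against vehicle the counts were 1 and 1 higher and 1 and 2 lower, beside 5.95% and 4.57%. In GV1001 against naive they were 1 and 0 higher and 1 and 2 lower, beside 8.84% and 8.24%.

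The smallest p in vehicle against naive belonged to Samhd1, a dNTP hydrolase that limits DNA synthesis and viral infection and is abundant in myeloid cells. Samhd1 was at 19.1, 27.1 and 27.8 TMM CPM in naive, 146, 40.1 and 45.2 in vehicle libraries and 25.2, 70.9 and 43 in GV1001 libraries. All vehicle libraries were above all naive ones, as for 12% of all tested genes, with vehicle replicate 1 far above the rest. Its log2 fold change was 1.64 ± 0.50, with an edgeR adjusted p of 0.111. Monocyte markers, 6 of 6 counted in each group, summed to between 5.41 and 15.5 TMM CPM in naive, 52 and 689 in vehicle libraries and 32.4 and 179 in GV1001 libraries, and their part was not tested.

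Tep1, a telomerase-associated protein that is also part of vault particles, had a log2 fold change of 1.15 ± 0.41 in vehicle against naive (adjusted p = 0.154 in edgeR). It was at 6.5, 6.77 and 5.16 TMM CPM in naive and 20.5, 6.18 and 14.4 in vehicle libraries, so the groups overlapped through vehicle replicate 2. Parn, a ribonuclease that trims the tail of telomerase RNA, was at 12.1, 8.51 and 11.6 TMM CPM in naive and 15.1, 12.9 and 21.1 in vehicle libraries, without overlap (0.62 ± 0.24, adjusted p = 0.183 in edgeR). Without vehicle replicate 2, edgeR called 3 of these genes, all higher, namely Samhd1 (1.94, adjusted p = 0.0309), Tep1 (1.49, adjusted p = 0.0169) and the chromatin protein Smchd1 (0.51, adjusted p = 0.046), which is 3 of 37 tested. The same fit called 1652 of 15848 genes in all, 10.4%, and 7.46% as higher, a share near that of the listed genes. Vehicle replicate 2 had the lowest microglial, monocyte and T cell sums of its group, at 485, 52 and 3.37 TMM CPM. Its sum of 5 erythrocyte markers, 4772 TMM CPM, was the highest of the series. The part of these markers in the calls was not tested.

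In GV1001 against vehicle, 19 of the 22 tested end-protection genes had a negative log2 fold change, with a median of -0.19 beside -0.0089 for all tested genes, of which 51.4% were negative. Without vehicle replicate 1 the count was 13 of 22 and the median -0.06, so the lean to lower values rested largely on that library. In GV1001 against naive 13 of 22 were negative, with a median of -0.05, and in vehicle against naive 9 of 22 were, with a median of 0.09. The summed level of the 23 listed genes was 947 TMM CPM in vehicle replicate 1, against 692 and 762 in vehicle replicates 2 and 3, 699 to 730 in naive and 666 to 719 in GV1001 libraries. Vehicle replicate 1 also had the highest microglial, monocyte and T cell sums of the series, at 2569, 689 and 59.6 TMM CPM, and their part in the list's values was not tested. Mre11a, the nuclease of the complex that senses chromosome ends and breaks, was at 9.96, 7.3 and 10.8 TMM CPM in vehicle libraries and 6.03, 6.29 and 5.48 in GV1001 libraries. Its groups did not overlap, as for 4.57% of all tested genes in that direction. The log2 fold change of Mre11a was -0.66 ± 0.24 (adjusted p = 0.528 in edgeR). Tnks2 and Smchd1 followed at -0.24 ± 0.13 and -0.30 ± 0.16, with adjusted p-values of 0.587 and 0.593. Against naive, the smallest p with GV1001 belonged to Tnks, a tankyrase that in human cells releases TRF1 from telomeres. Tnks was at 47.5, 46.7 and 43 TMM CPM in naive and 37.1, 38.2 and 35.1 in GV1001 libraries, a log2 fold change of -0.31 ± 0.12 (adjusted p = 0.656 in edgeR). Tent4b, a poly(A) polymerase acting on telomerase RNA, and Mre11a stood at -0.43 ± 0.18 and -0.54 ± 0.25, with adjusted p-values of 0.659 and 0.686. The same Schwann and muscle marker sums as given for Terf1 stand beside these genes, and their part was not tested.

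**Figure D4:**
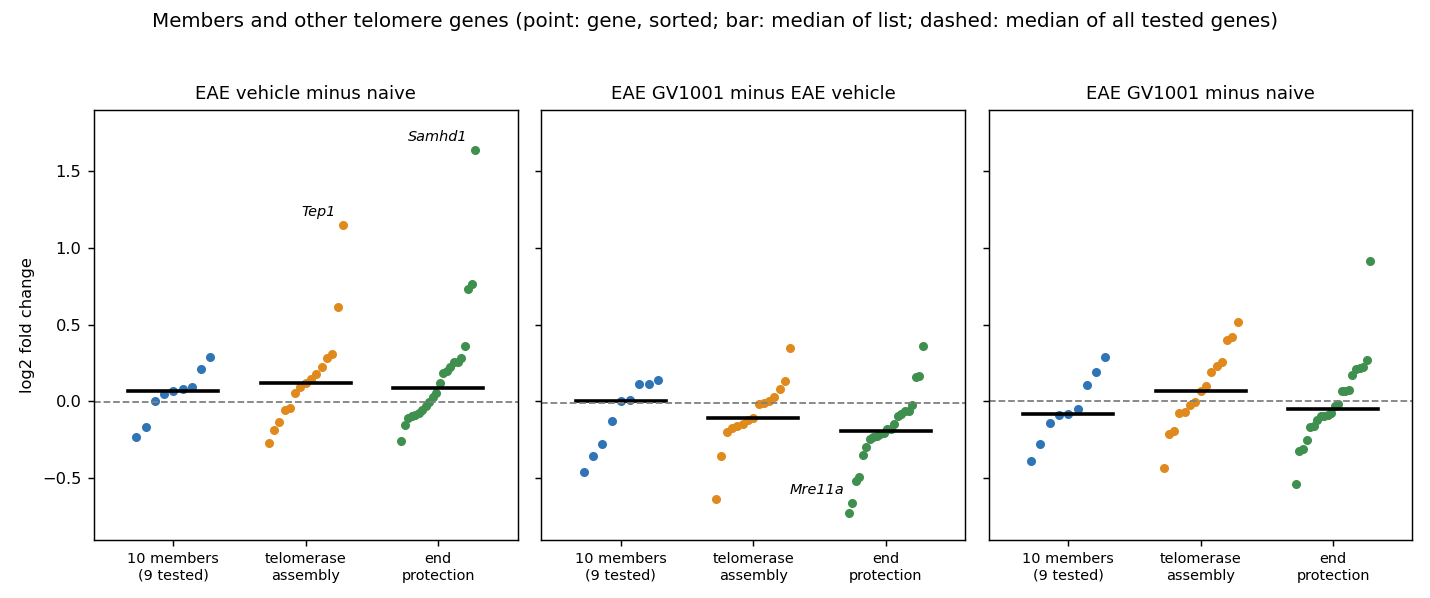
Log2 fold changes of the 9 tested members, 15 telomerase assembly genes and 22 end-protection genes in the 3 comparisons, each point a gene; bars are list medians and the dashed line is the median of all tested genes. Samhd1 (1.64) and Tep1 (1.15) stand highest in vehicle against naive, and 0 genes were called. End-protection genes below 0 number 19 of 22 in GV1001 against vehicle, 13 of 22 in the same comparison without vehicle replicate 1 (not drawn) and 13 of 22 in GV1001 against naive.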

How the data were processed

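RNA from spinal cord was extracted with TRIzol or a Maxwell kit and sequenced from QuantSeq 3′ libraries, per the labels' protocols. The authors deposited raw read counts per gene symbol. FastQC, STAR, HTSeq and GRCm39 are named without versions in the submitters' processing notes. Annotation, strand setting and use of molecular identifiers are not given in the sources used here. The 9 single-library files held the same counts as the table of all samples. Groups came from the sample titles.

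Genes were kept by edgeR's filterByExpr (group design, 10 counts as the minimum), and counts were scaled by TMM and fitted with the edgeR 4.0.16 quasi-likelihood test over all 9 libraries, with R 4.3.3. Standard errors came from the F statistic. DESeq2 1.42.0, limma-voom (limma 3.58.1), other scalings, no filter, 2-group fits, a replicate block and leaving out each library were alternatives. Tert was described by exact intervals (scipy 1.17.1). Figures used matplotlib 3.10.9. The text names all members, pathway genes past the threshold, the 3 smallest p per comparison and the 3 most correlated genes of 2 members. Npm1, Fbl and Nop56, of the box C/D list, were named outside this rule. They are that list's genes at an unadjusted edgeR p under 0.05 in vehicle against naive. Members and lists were chosen with earlier results of these data known.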

Additional observations from a re-analysis of the deposited data

How the results depend on the processing

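Across 17 alternatives in each of 3 comparisons, no member was called. Of 459 refitted member fold changes, 429 kept their sign and 30, over 10 gene and comparison pairs whose main log2 fold change was at most 0.138 in size, changed it. The smallest adjusted p over the 459 was 0.181. Outside the fits that left out a library, the changed values were -0.0042 for Acd in vehicle against naive (limma-voom), -0.0015 (RLE size factors), -0.0089 (limma-voom) and -0.0026 (only the 6 libraries compared) for Nhp2 in GV1001 against vehicle, and -0.0115 (no filter) and -0.00040 (replicate block) for Terf2ip in vehicle against naive. Leaving out single libraries gave -0.082 to 0.57 for Acd, -0.0010 to 0.24 for Dkc1, -0.10 to 0.17 for Nhp2 and -0.039 to 0.058 for Terf2 in GV1001 against vehicle. It gave -0.38 to 0.27 for Acd, -0.088 to 0.073 for Terf2ip and -0.036 to 0.16 for Tinf2 in vehicle against naive, and -0.13 to 0.041 for Dkc1, -0.37 to 0.052 for Pot1a and -0.22 to 0.035 for Tinf2 in GV1001 against naive.

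Counts over all genes moved more. In vehicle against naive, edgeR called 3 genes, with 20 by library totals, 543 without the filter, 14 in the 6 libraries compared, 0 with the replicate block, 0 in limma-voom, 1104 in DESeq2, and 0 to 1652 when 1 library was left out. In GV1001 against vehicle, 0 became 13 in DESeq2 and 0 to 8. In GV1001 against naive, 0 became 45 in DESeq2, 5 in the 6 libraries compared, 1 by library totals, without the filter and in the older quasi-likelihood form, and 0 to 3. The pathway genes, an alternative added after the data were seen, gave 0 to 3 calls in vehicle against naive. End-protection genes with a negative log2 fold change, also added then, numbered 5 to 11 of 22 in vehicle against naive when 1 library was left out, against 9, and 13 to 19 in GV1001 against vehicle, against 19. The Tert ratio ran from 1.5 to 4.63, 0.503 to 4.62 and 1.55 to 10 in vehicle against naive, GV1001 against vehicle and GV1001 against naive, with no value without naive replicate 2, which held the 1 naive read. The causes were not tested.

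Nothing in the labels ties same-numbered libraries together. Of 9 same-numbered pairs, 2 had a correlation of deviations above 0.1, and a library correlated best with its own number in 5 of 18 cases. The replicate block left member calls at 0. Depth, the 3 libraries a group and the 1 library that held 6 of its 11 reads all limit what can be said of Tert.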

Other observations

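Box C/D particles, which guide methylation of ribosomal RNA and sit in the nucleolus beside the dyskerin complex, were read from a list of 7 core and nucleolar genes, all tested, of which edgeR called 0 in each comparison. Npm1, a nucleolar chaperone, was at 122, 126 and 125 TMM CPM in naive, 190, 145 and 152 in vehicle libraries and 138, 124 and 109.7 in GV1001 libraries. The vehicle libraries were above all others, and the log2 fold change was 0.39 ± 0.12 in vehicle against naive (adjusted p = 0.114 in edgeR) and -0.39 ± 0.12 in GV1001 against vehicle (adjusted p = 0.528 in edgeR). Both comparisons share the vehicle libraries. Vehicle replicate 1, the highest for Npm1, also had the highest sums of proliferation, microglial and T cell markers, at 144, 2569 and 59.6 TMM CPM. Vehicle replicates 2 and 3 had proliferation sums of 71.9 and 47.3, against 33.7 to 45.5 in naive and 42.2 to 54.5 in GV1001 libraries, and the part of these markers in the Npm1 and Fbl values was not tested. Fbl, the methyltransferase of the particle, was at 6.68, 2.95 and 4.98 TMM CPM in naive, 9.04, 9.17 and 7.43 in vehicle libraries and 6.22, 3.67 and 4.03 in GV1001 libraries, again with the vehicle libraries above all others (0.81 ± 0.31 in vehicle against naive, adjusted p = 0.184 in edgeR). Nop56, a scaffold of the same particle, stood on the other side, at -0.25 ± 0.11 in vehicle against naive (adjusted p = 0.24 in edgeR). Groups did not overlap for 3 of the 7 genes higher and 1 lower in vehicle against naive, where 12% and 11.7% of all tested genes did so. In GV1001 against vehicle they did not overlap for 1 gene higher and 2 lower, where 5.95% and 4.57% did so. The share of genes apart from both other groups was not computed. Npm1 and other nucleolar genes have processed pseudogenes, so the assignment of reads is uncertain.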
